A study of Bos taurus with 10 samples.

Results

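DDX4 and CTAG2 are genes of the germ line, the cell lineage that gives rise to eggs and sperm, and their probe sets are described here on bovine embryo and adult tissue arrays. The members are the probe sets with values whose platform annotation names DDX4 or CTAG2 alone. There were 2 of them, 1 for each gene, among 10186 probe sets with values, and these 2 genes stood among 6732 genes named by a probe set with a single symbol. The platform holds 3 probe sets of these names in all. The remaining CTAG2 probe set had no value on any array and was not analysed here. The genes were chosen because they read high in the embryos. Their levels in embryos and tissues are therefore given as a description, with no test.

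Bovine (Bos taurus) total RNA was read on a human gene expression array by cross-species hybridisation, so genes carry human symbols. The embryo group was 3 arrays of pooled RNA from embryos made by in vitro fertilization (IVF, fertilization of oocytes outside the animal). The adult group was 7 arrays, 1 per tissue, from spleen, lung, liver, kidney, heart, muscle and brain. No treatment or genotype is given for either group, and embryo age and pool size were not known here. Nothing in the labels says that the 3 embryo arrays are separate pools, and their differences could come from technique alone. The main limma p-values rest on the spread among these 3 arrays together with that across the 7 different tissues. They may therefore leave out variation between embryo pools. No tissue was repeated, and any adult SD below is therefore a spread across different tissues.

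DDX4, also called VASA, is an RNA helicase of the DEAD-box family. It is a defining protein of germ cells, where it sits in RNA-rich germ granules and acts in the handling of stored RNA and in the silencing of transposons by small RNAs. CTAG2 is a cancer-testis antigen. Such genes are active in the germ cells of the testis, are mostly silent in adult somatic tissues and are switched on again in some tumours. Oocytes carry germ line RNA into the early embryo, and some germ line genes are also transcribed by the embryo itself. In bulk RNA, fewer cells of a type and less RNA per cell cannot be told apart.

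Each array was set to a common distribution by quantile normalization before levels were compared. Deposited medians ran from 99.2 in liver to 221 in the third embryo array. After normalization the median of every array was 146, the 25th percentile about 72.2 and the 75th percentile 252. Among trophectoderm markers (the outer epithelium of the blastocyst), 4 of 6 tested genes rose in embryos (limma, where 8.87% of all tested probe sets were called higher), namely KRT8, KRT18, SFN and TFAP2C. GATA2 and GATA3, the others tested, did not pass. The list was chosen with earlier results of these data known, so its count is no independent check. The summed level of that list was 13156 to 15016 in embryos and 885 to 1662 in tissues. Marker probe sets of a tissue that were bright in any tissue peaked in the array of that name for 8 of 10 in brain, 12 of 13 in liver, 8 of 10 in heart and 9 of 12 in lung. It was 4 of 6 for kidney and 5 of 7 for muscle. None of the 3 bright spleen marker probe sets was highest in spleen, so these markers do not identify that array.

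DDX4 read high on each embryo array and close to the lowest values of the scale in every tissue. The normalised intensity was 631, 362 and 269 on the first, the second and the third embryo array. It was 0.73 in brain, 0.91 in kidney, 1.01 in muscle, 1.25 in liver, 1.37 in lung, 1.69 in spleen and 10.2 in heart. The groups did not overlap, and heart was the only tissue array above 2 normalised units. The 3 embryo arrays averaged 421 ± 188 (SD, n = 3), and the mean over tissues was 2.46 ± 3.45 (SD, n = 7). Within each array, DDX4 ranked at the 94.8, 85.9 and 77.3 percentile of all probe sets in embryos, and between the 1.11 percentile (brain) and the 5.74 percentile (heart) in tissues. Tissue values this low carry no usable order among themselves, and no fold was formed against them.

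On the scale of log2(normalised intensity + 72.2), used for every difference below, the embryos averaged 8.88 ± 0.53 (SD, n = 3) and the tissues 6.22 ± 0.06 (SD, n = 7). The log2 difference of DDX4 was 2.66. This scale understates the change of dim probe sets. Because the tissue values lay so far under the offset of 72.2, the difference from single tissues ran only from 2.51 (heart) to 2.69 (brain and kidney). The lowest embryo array exceeded the highest tissue by 2.05. With an offset of 1 the difference became 7.19, and with an offset 4 times larger 1.25, so its size depends on the offset, with the direction the same.

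The spread of DDX4 among the embryo arrays was wide after normalization and narrower as deposited, where the SD was 98.0 on a mean of 445. The first array read highest, and the third lowest, both in the normalised values and in the deposited ones, which were 558, 395 and 381. The embryo SD on the log2 scale of normalised values was 0.53 for DDX4 and 0.20 for CTAG2. As deposited, the embryo SD of CTAG2 was 108 on a mean of 650, so the contrast depends on the scaling. Deposited tissue values of DDX4 ran from 0.9 to 8.2, again with heart highest.

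CTAG2 also read above every tissue on each embryo array, but it differed from DDX4 in the tissues. Its normalised intensity was 699, 516 and 588 on the first, the second and the third embryo array. Among tissues it was 7.28 in brain, 54.5 in liver, 70.5 in heart, 75.3 in kidney, 77.9 in muscle, 91.1 in lung and 103 in spleen. Brain stood lowest, and the other tissues lay within a narrow band between the 19.4 percentile (liver) and the 35.5 percentile (spleen) of their own arrays. With 1 array per tissue, neighbours in this order have no replicate spread to be judged by. The 3 embryo arrays averaged 601 ± 92.1 (SD, n = 3), and the mean over tissues was 68.6 ± 31.1 (SD, n = 7).

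On the log2 scale CTAG2 averaged 9.39 ± 0.20 (SD, n = 3) in embryos, while tissues averaged 7.10 ± 0.38 (SD, n = 7), a difference of 2.29. The difference was smallest from spleen, at 1.93, and largest from brain, at 3.07. The lowest embryo array exceeded the highest tissue array by 1.75. With an offset of 1 or an offset 4 times larger the difference became 3.40 or 1.32. Scaling changed the order of the embryo arrays. The deposited values were 624, 558 and 769, with the third array highest, while the first was highest after normalization.

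**Figure D1:**
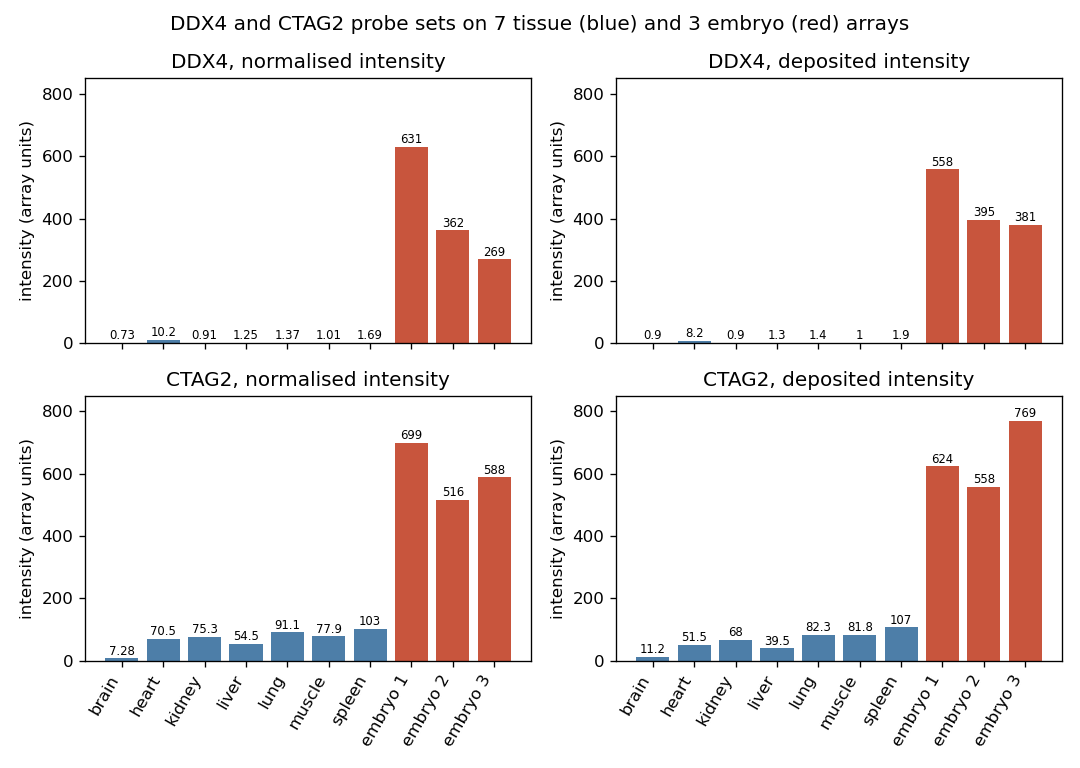
Intensity of the DDX4 and CTAG2 probe sets (vertical axes, array units from 0) on each of 7 tissue arrays (blue) and 3 embryo arrays (red), after quantile normalization (left) and as deposited (right). Each bar is 1 array, so there are no error bars. All 3 embryo bars stand above every tissue bar in each panel, and DDX4 is at 10.2 or less in all tissues after normalization.

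A further 3 probe sets are annotated to the near-identical human copies CTAG1A and CTAG1B together. They carry several symbols, so they are not members and name no single gene, but they belong to the same antigen family as CTAG2. Their normalised intensities on the first, the second and the third embryo array were 581, 654 and 927 for one probe set, 685, 768 and 957 for another, and 775, 675 and 842 for the last. Across the 7 tissues they ran from 1.92 to 91.4, from 2.31 to 114 and from 2.17 to 94.7, with brain lowest each time. As with CTAG2, embryos and tissues did not overlap. Their log2 differences were 2.64, 2.68 and 2.69.

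The CTAG probe sets shared a low value in brain. The highest tissue was spleen for CTAG2, and liver, kidney and spleen for the CTAG1A and CTAG1B probe sets in the order above. Over the 7 tissues alone, Pearson's r of log2 values was 0.67, 0.71 and 0.81 between CTAG2 and the CTAG1A and CTAG1B probe sets. These values include the low brain array, and r without brain was not computed. Over all 10 arrays the same correlations were 0.97, 0.97 and 0.98, and that between CTAG2 and DDX4 was 0.95, values that include the gap between embryos and tissues. These are descriptions, with points that share arrays. DDX4 hardly varied among the tissues, where its values carry no usable order, so its correlations there are not given. The names of the CTAG2, CTAG1A and CTAG1B probe sets end in the maker's mark for probes that can hybridise to other sequences. In the bovine RefSeq gene table (assembly ARS-UCD2.0) the symbol DDX4 was found, as was LAGE3, a further relative of CTAG2. No gene of that table carried CTAG2, CTAG1A or CTAG1B as symbol or synonym. Which bovine transcript these probes read was not tested.

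**Figure D2:**
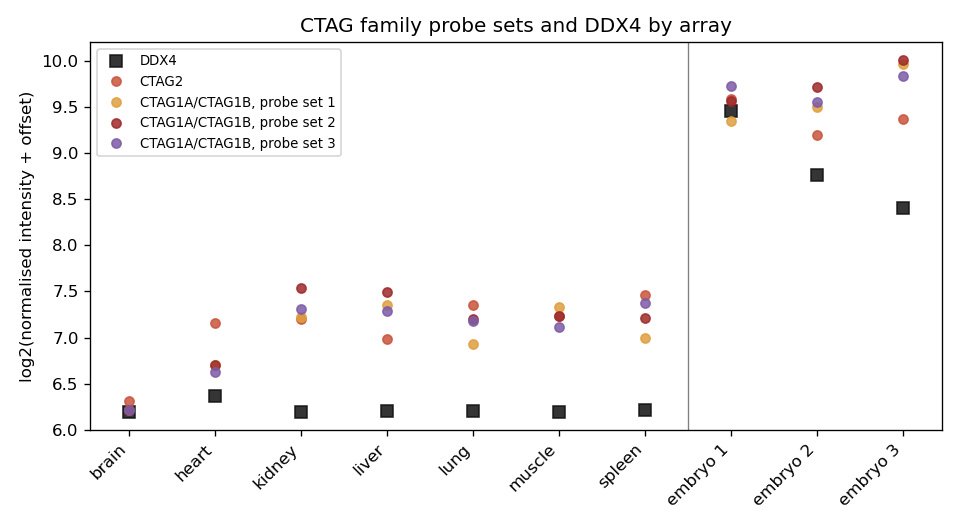
Log2(normalised intensity + 72.2) of DDX4 (black squares), CTAG2 and the 3 probe sets annotated to CTAG1A and CTAG1B (circles) on each array, tissues left of the line and embryos right. Each point is 1 array. The CTAG probe sets lie lowest in brain among tissues, and every embryo point is above every tissue point of its probe set.

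The members were set in the context of all probe sets, with limits chosen after their values were seen. Probe sets above the 75th percentile on each embryo array and below the 50th on each tissue array numbered 67 of 10186, or 0.658%. DDX4, CTAG2 and the 3 CTAG1A and CTAG1B probe sets were among them. With every tissue below the 25th percentile there were 27 (0.265%), which held DDX4 and not CTAG2. Embryos and tissues were separated, with every embryo array above every tissue, for 845 of 6775 tested probe sets, or 12.5%. That background includes both members, which the choice of the genes fixes. To be tested, a probe set had to exceed the median of an array on 3 or more of the 10 arrays. Both members passed that filter only through the embryo arrays, so they had to differ.

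The genes whose patterns were most like DDX4, by Pearson's r of log2 values over the 10 arrays, were DLGAP5 (r = 0.991), HSD17B14 (0.991), CDC20 (0.990), KRT33B (0.989) and HSPA4 (0.989). DLGAP5 and CDC20 act in mitosis, HSD17B14 is a hydroxysteroid dehydrogenase, KRT33B a hair keratin and HSPA4 a chaperone. CDC20 read 303, 268 and 188 in the embryos and at most 20.6 in tissues. KRT33B read 591, 415 and 161 and at most 5.25 in tissues. Like DDX4, both were highest on the first embryo array and lowest on the third.

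Most like CTAG2 were IPO5, a nuclear import receptor (r = 0.988), EIF1AY, a translation initiation factor (0.975), HSPA4 (0.971), KIF20A, a kinesin of cell division (0.970), and SIRT1, a deacetylase (0.969). EIF1AY is the name of a Y-linked gene whose X-linked copy could share its probes, so it is uncertain. IPO5 read 394, 304 and 302 in embryos, and in tissues from 46.3 in brain to 116 in lung. It shared the low value in brain with CTAG2, and r over the 7 tissues was 0.90. For EIF1AY, HSPA4, KIF20A and SIRT1 that r was 0.87, 0.46, 0.68 and 0.46. In both lists, r over the 10 arrays includes the gap between embryos and tissues, for which the members were chosen. HSPA4 stood on both lists. The lists depend on the measure. None of the 5 genes of either list remained among the first 5 by Spearman's correlation or over the tissues alone. With the values as deposited, 2 of each remained. For DDX4 the ranking over tissues alone draws on values that carry no usable order.

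**Figure D3:**
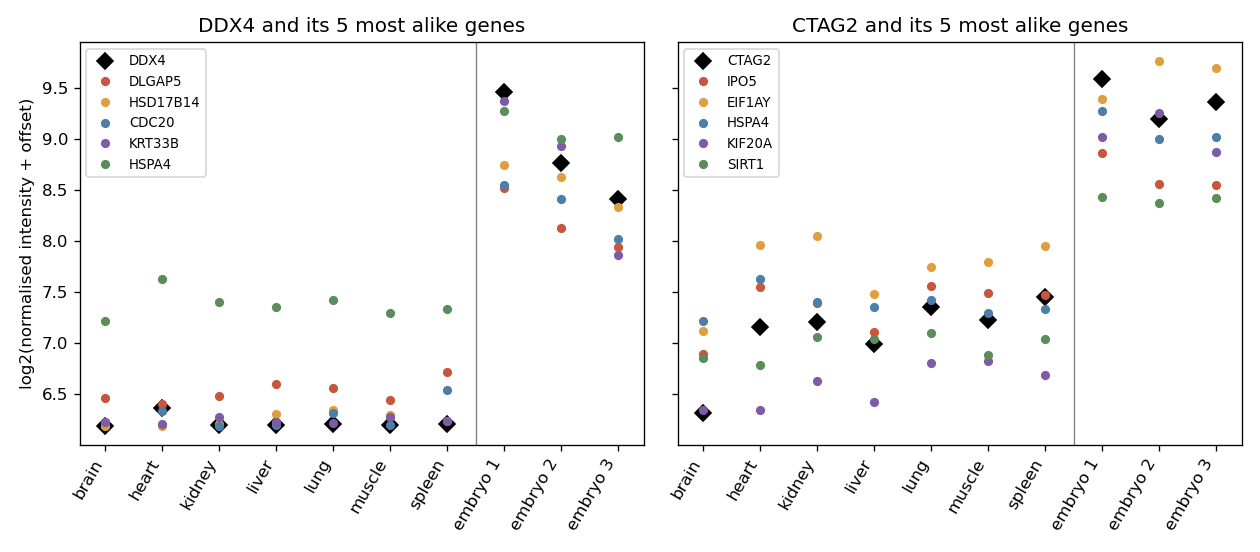
Log2(normalised intensity + 72.2) of DDX4 (left) and CTAG2 (right), as black diamonds, with the 5 genes of highest Pearson r over the 10 arrays, as circles. Each point is 1 array, tissues left of the line and embryos right. CDC20, KRT33B, DLGAP5 and HSD17B14 are, like DDX4, highest on the first embryo array and lowest on the third. CTAG2, IPO5 and EIF1AY share a low value in brain.

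Of the other germ line genes tested, PRMT5 and TRIP13 rose in embryos and DAZAP2 fell, shares near those of all probe sets. Embryos were tested against tissues with limma over all 6775 probe sets, where 8.87% were called higher and 3.22% lower in embryos at an adjusted p under 0.05. The germ line lists held germ granule proteins, cancer-testis antigens and genes of meiosis, oocytes and sperm. Of 31 tested genes, members left out, 2 rose (6.45%), 1 fell (3.23%) and 28 did not pass. Both genes that rose passed the filter on dim probe sets only through the embryo arrays, so the filter favoured a rise, and nothing particular to germ line genes can be read from these counts. The median log2 difference was 0.11, and 0.04 over all tested probe sets. Every embryo array was above every tissue for 3 of the 31 (9.68%), against the 12.5% of all tested probe sets. A further 15 of the 46 listed genes with values were too dim to be tested.

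Among 9 tested germ granule genes and partners, PRMT5 rose and DAZAP2 fell. PRMT5, an arginine methyltransferase that modifies proteins of the splicing machinery and of germ granules, read 310, 211 and 150 in embryos and between 26.1 (brain) and 128 (liver) in tissues. Its groups did not overlap, and the log2 difference was 1.14 ± 0.27 (SE, limma adjusted p = 0.016). PRMT5 passed the filter only through the embryo arrays, which favoured both results. DAZAP2, named for its binding to the germ cell protein DAZ and expressed in many tissues, read 260, 380 and 170 in embryos against 1557 to 2964 in tissues. The fall was -2.67 ± 0.28 on the log2 scale (SE, limma adjusted p = 8.98e-05), and of its 2 other probe sets one fell by 2.17 and the last fell by 1.13.

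DAZL, an RNA-binding protein of germ cells, read 128, 187 and 586 in embryos, and among tissues 544 in muscle and 121 to 221 elsewhere. The groups overlapped, and the log2 difference was 0.35 ± 0.41 (SE, limma adjusted p = 0.615). PIWIL2, which binds the small RNAs that silence transposons, read 154, 218 and 212 in embryos and 126 to 183 in tissues (0.24 ± 0.16, limma adjusted p = 0.345). Its other probe set was too dim to be tested, at 17.7 to 42.5 in embryos and up to 269 in brain. PIWIL1 had no value and was not analysed here.

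Of the cancer-testis antigens other than CTAG2, 3 genes were tested and none passed in limma, nor did any have an unadjusted p under 0.05. With 8.87% of all tested probe sets higher and 3.22% lower, 3 genes are too few to read this count. MAGEB4 had a log2 difference of 0.28 (limma adjusted p = 0.379), and SSX3 of -0.28 (limma adjusted p = 0.353). SSX3 read 175, 159 and 149 in embryos and 154 to 333 in tissues, with spleen highest. LAGE3 had no value here.

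Among 7 meiosis genes TRIP13 rose. TRIP13, an ATPase of meiotic recombination that also acts in the mitotic spindle checkpoint, read 171, 198 and 325 in embryos and 36.6 to 126 in tissues, with no overlap. The log2 difference was 0.96 ± 0.25 (SE, limma adjusted p = 0.0268). TRIP13 too passed the filter only through the embryo arrays, which favoured a rise without overlap. SYCP1, a protein of the synaptonemal complex that pairs meiotic chromosomes, read 268, 252 and 212 in embryos and 176 to 643 in tissues (-0.09, limma adjusted p = 0.879). REC8 and STAG3, cohesin subunits of meiosis, had log2 differences of -0.45 and -0.40 (limma adjusted p = 0.197 and 0.369).

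The call for PRMT5 was lost without the first or the second embryo array (limma adjusted p = 0.104 and 0.0727) and with embryo arrays averaged to 1 sample (0.361), over a range of 0.00347 to 0.361 in all alternatives. The call for TRIP13 was lost when any embryo array was left out (limma adjusted p = 0.0597, 0.098 and 0.151 in array order), without the third embryo array and muscle together (0.114), with embryo arrays averaged (0.522) and with an offset of 1 (0.0504), over a range of 0.0107 to 0.522.

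Oocyte and sperm genes had no member past the threshold in limma, where 8.87% of all tested probe sets were higher and 3.22% lower, so lists this short can hold no call at the background share. For 2 tested oocyte genes none had an unadjusted p under 0.05, and for 10 tested sperm and spermatid genes 1 had. No share of all probe sets was counted at that limit. BMP15, a growth factor of the oocyte, read 73.0, 60.2 and 342 in embryos and 41.3 to 356 in tissues (0.11, limma adjusted p = 0.912). TLE6, of the subcortical complex that oocytes pass to the embryo, read 153, 151 and 125 in embryos and 110 to 293 in tissues (-0.20, limma adjusted p = 0.598). ACRV1, a protein of the sperm acrosome, read 165, 228 and 950 in embryos and 67.8 to 699 in tissues (0.66, limma adjusted p = 0.505). Its other probe sets had log2 differences from -0.32 to 0.59, and none that was tested passed. RPL10L, a testis form of a ribosomal protein, had a log2 difference of 0.52 (limma adjusted p = 0.354).

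The summed level of the 3 oocyte probe sets was 220 to 477 in embryos and 199 to 520 in tissues. That of the 22 sperm and spermatid probe sets was 3888 to 6518 and 3117 to 6369. For cumulus and granulosa cells, the somatic cells around the oocyte, none of 4 tested genes passed, and the 8 probe sets of 7 genes summed to 931 to 1223 in embryos and 630 to 1416 in tissues. All 3 ranges overlapped between embryos and tissues. GDF9, ZP3 and PRM1 were not analysed here.

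**Figure D4:**
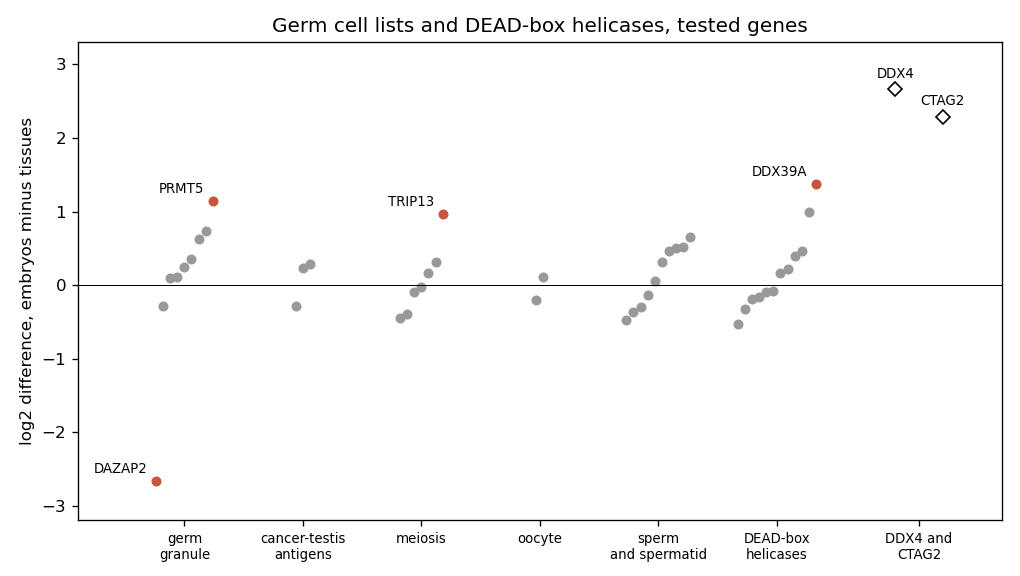
Log2 difference, embryos minus tissues, of each tested gene of the germ cell lists and of the DEAD-box helicases (1 point per gene, by its brightest probe set). Red points passed limma's adjusted p of 0.05 and grey points did not, while open diamonds are DDX4 and CTAG2, which were chosen from these values and not tested. The red points are PRMT5, TRIP13 and DDX39A above 0 and DAZAP2 below it.

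Several germ line genes read high on the third embryo array and in muscle, relative to most other arrays of each group, and some of them in lung as well. This pattern was noticed after the values were seen. It is one of ratios, since DDX25 read only 127 in muscle, where the array median was 146. DAZL, BMP15, ACRV1, LDHC and DDX25 exceeded 2 times the mean of the other embryo arrays on the third, and 2 times the tissue median in muscle. In lung, ACRV1 read 699 by its brightest probe set, above the 543 of muscle, and BMP15 read 323, close to the 356 of muscle. Of the other ACRV1 probe sets, one read 751 in lung and 515 in muscle, and the rest read lower in lung than in muscle. One of those read 67.5, 111 and 160 in embryos, another 55.5, 96.1 and 164, and another 19.0, 29.9 and 43.6. Each had a smaller rise on the third array than the brightest probe set. The last of those read 130, 197 and 992. The counts below take each gene by its brightest probe set. The genes with this pattern were 5 of the 46 germ cell list genes with values (10.9%), and the same held for 482 of all 10186 probe sets (4.73%). DDX4 and CTAG2 did not share it. DDX4 was lowest on the third embryo array and read 1.01 in muscle, and CTAG2 read 588 there and 77.9 in muscle. Without the third embryo array and muscle together, an alternative chosen after seeing the data, 1 of the 31 germ cell list genes rose. Over all 6775 tested probe sets, 342 were then higher, against 601 with all arrays. Leaving out the third embryo array alone also gave 1 germ cell list gene, and leaving out the first or the second gave 0. What sets the third embryo array and muscle apart was not tested.

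**Figure D5:**
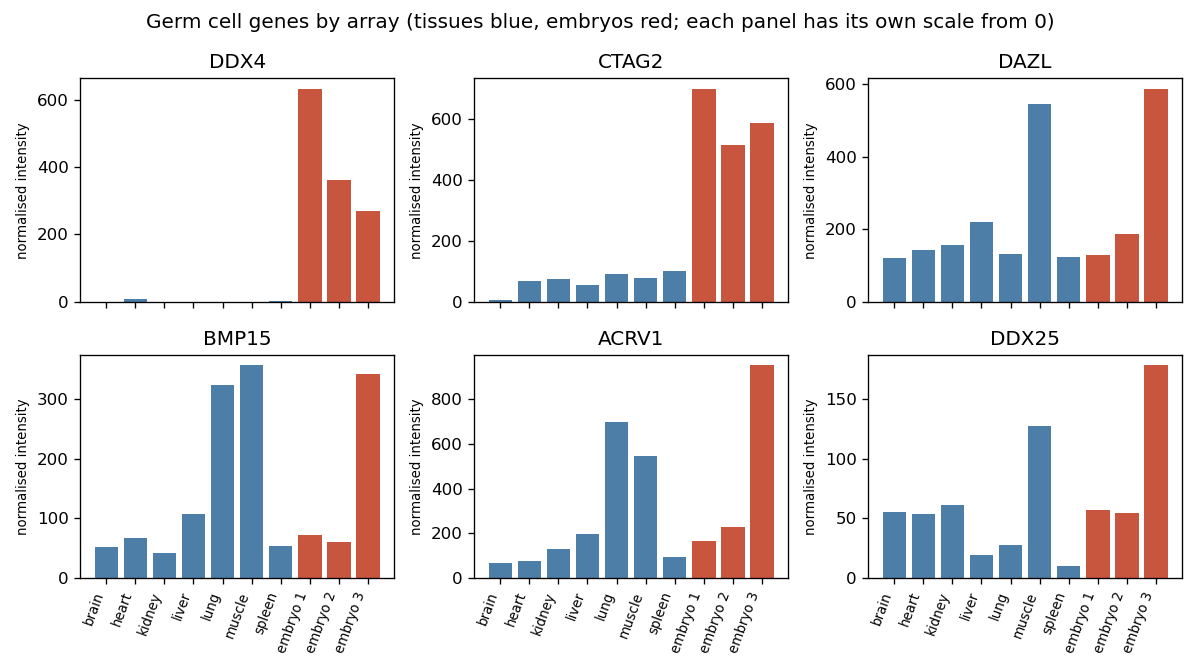
Normalised intensity (vertical axes from 0, each panel with its own scale) of DDX4, CTAG2, DAZL, BMP15, ACRV1 and DDX25 on each tissue array (blue) and embryo array (red). Each bar is 1 array. DAZL, BMP15, ACRV1 (by its brightest probe set) and DDX25 are high on the third embryo array and in muscle, relative to most other arrays of each group. BMP15 and ACRV1 are high in lung too. All 3 embryo bars of DDX4 and CTAG2, which were chosen as high in embryos, stand above every tissue.

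The other DEAD-box helicases, enzymes that unwind RNA in splicing, ribosome assembly and translation, were called about as often as all probe sets. Of 12 tested genes 1 rose (8.33%, against 8.87% of all tested probe sets), none fell (3.22% of all), and the median log2 difference was 0.04. At an unadjusted p under 0.05 there were 2, with no share of all probe sets counted beside it. The gene that rose was DDX39A, a helicase of messenger RNA export, which read 223, 172 and 150 in embryos and 8.17 (brain) to 67.3 (muscle) in tissues (1.37 ± 0.26, SE, limma adjusted p = 0.00599). It also passed the filter only through the embryo arrays, and the call was lost with embryo arrays averaged (limma adjusted p = 0.109, over a range of 0.000994 to 0.109).

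DDX3X and DDX3Y, close relatives of DDX4 that act in translation, were read in most tissues. DDX3X read 654, 615 and 592 in embryos and 273 to 677 in tissues (0.46 ± 0.28, limma adjusted p = 0.315), and none of its 3 other probe sets passed. DDX3Y read 869, 638 and 415 in embryos and 84.3 to 770 in tissues (0.99 ± 0.52, limma adjusted p = 0.235). Both sets of groups overlapped, and as near-identical copies these genes may share probes. DDX25, a helicase of the testis, was too dim to be tested and read 56.9, 54.3 and 178 in embryos and 10.6 to 127 in tissues.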

How the data were processed

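The authors deposited 1 linear intensity per probe set and array, by software and scaling not given in the sources used here. Values existed for 10219 of 22283 probe sets (33 of them controls), and 12064 were blank throughout. Of the 10186 analysed, 8847 had 1 symbol, 479 several and 860 none. Array trimmed means (2% per end) differed 1.90-fold, above a limit of 1.5, so arrays were quantile normalized and put on the scale log2(intensity + 72.2), where 72.2 is the median of the arrays' 25th percentiles. The 6775 probe sets that exceeded the array median on 3 or more arrays entered limma 3.58.1, run in R 4.3.3 (trend and robust eBayes, two-sided, Benjamini-Hochberg, threshold 0.05), 3 embryo arrays against 7 tissues. The test was tried on simulated data. The brightest tested probe set stood for a gene. Named genes were the members, their 5 most alike genes, up to 4 called genes per list, the 2 largest differences where fewer than 2 passed, and a fixed set. The fixed set included SYCP3 and CTAG1B, not analysed here. Members and lists were chosen with earlier results of these data known. No sequences were used, and positions in the bovine RefSeq table gave only the order of the genes beside DDX4. Alternatives varied the scaling, offset, filter, variance model, weight of the embryo arrays, probe set and arrays left out. Plots used Python 3.11.15 and matplotlib 3.10.9. Array number limits precision.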

Additional observations from a re-analysis of the deposited data

Results flagged for a closer look

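DDX4 read 10.2 in heart, apart from the other tissues, which lay between 0.73 and 1.69. The deposited heart value was 8.2, and all of these values are far under the 25th percentile of their arrays.

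DAZL read 544 in muscle, where the nearest other tissue read 221 and the lowest 121. SSX3 read 333 in spleen, where the nearest other tissue read 226 and the lowest 154. In each case the gap to the nearest tissue was a larger part of the range of the 7 tissues than Dixon's 95% critical value for 7 samples allows. The 7 arrays are different tissues. There were 23 probe sets examined, and chance flags a small share of such groups, about 1 in 20.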

How the results depend on the processing

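The direction of DDX4 and CTAG2 was higher in embryos under every alternative run, and the size moved beyond the embryo SD with the offset alone, to 7.19 and 3.40 at an offset of 1 and to 1.25 and 1.32 at an offset 4 times larger. Leaving out each array in turn gave 2.38 to 2.84 for DDX4 and 2.15 to 2.37 for CTAG2. Of the 5 most alike genes, 0 remained by Spearman's correlation, 2 with deposited values and 0 over tissues alone, for each gene. For DDX4 the result over tissues alone rests on values near the lowest of the scale. With the spread taken from embryo arrays alone, 7 germ cell list genes were higher and 3 lower, 4 DEAD-box genes were higher and 1 lower, and 1651 and 1284 of all probe sets were called higher and lower. With embryo arrays averaged these counts were 0 germ cell and 0 DEAD-box genes higher and 73 and 5 probe sets. The 75th percentile filter left 0 germ cell and 0 DEAD-box genes higher, of 15 and 7 tested. PRMT5, TRIP13 and DDX39A did not pass that filter, so their calls could not be kept. Of all 3322 probe sets tested there, 430 were higher and 164 lower. An offset of 1 left 1 germ cell gene higher. Leaving out each array in turn gave 0 to 2 germ cell genes higher, and 255 to 633 and 56 to 295 probe sets higher and lower; the counts of 282, 255 and 382 higher and 83, 56 and 64 lower came without the first, the second and the third embryo array. Without the third embryo array and muscle, 1 germ cell gene was higher, with 342 and 59 probe sets. Over all probe sets 601 were higher and 218 lower, or 73.4% of calls higher. That share was 83.7% with values as deposited, where the median difference was 0.22 rather than 0.04. Of 352 single-gene values, 10 lost and 5 gained a call, all of the losses in PRMT5, TRIP13 or DDX39A and all of the gains with the spread from embryo arrays alone. The cause was not tested except as stated. No paired analysis was possible because each tissue had 1 array and replicate numbers do not pair embryos with tissues.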

Other observations

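The genes beside DDX4 on its bovine chromosome were taken by gene order in the RefSeq table of ARS-UCD2.0. Of 12 protein-coding genes, 6 on each side, 7 had values. None of their 7 tested probe sets passed in limma, and 3 had an unadjusted p under 0.05. The share of all tested probe sets under that unadjusted limit was not counted, so the 3 cannot be read against a background. Over all tested probe sets 8.87% were called higher and 3.22% lower, so a count of 0 among 7 is near the background. IL6ST, a cytokine receptor subunit, read 144, 198 and 212 in embryos and 291 to 739 in tissues (log2 difference -0.88, limma adjusted p = 0.0589). MTREX, an RNA helicase of the nuclear exosome, read 178, 187 and 216 in embryos and 105 to 147 in tissues (0.47, limma adjusted p = 0.0657). Every embryo array was above every tissue for MTREX, as for 12.5% of all tested probe sets, and below every tissue for IL6ST by the probe set given. PLPP1, a lipid phosphatase, read 502, 489 and 540 in embryos and 358 to 740 in tissues by its brighter probe set (-0.12, limma adjusted p = 0.773). ANKRD55 read 658, 410 and 472 in embryos and 95.8 to 1861 in tissues (-0.49, limma adjusted p = 0.701). IL6ST, MTREX and ANKRD55 were picked for display after their values were seen.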
